A study of Rattus norvegicus with 23 samples.

Results

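Gene-level read counts were compared between 3 repaired rat median nerves labelled MIV at day 7 and 3 healthy adductor muscles, which is 6 of the 23 libraries in the series. MIV stands for muscle-in-vein: a length of vein packed with skeletal muscle bridges a cut nerve, so healthy muscle is the reference for the filling of the graft. The comparison covers 15954 genes with enough counts to test, out of 32545 gene identifiers. All samples carry the genotype label WT, and the repaired rats were adult females. The MIV nerves had been cut to leave a gap of 8 mm, bridged with a graft of 10 mm, and collected at day 7 (n = 3). Healthy muscle was untreated and is labelled day 0 (n = 3). Other groups used below are nerves labelled EV at day 7 and day 3 (n = 3 each), whose treatment label gives repair of the cut without MIV, MIV nerves at day 3 (n = 3), untreated median nerve (n = 5) and untreated epigastric vein (n = 3). The EV nerves and the MIV day 3 nerves had the same gap of 8 mm. The labels do not say which muscle filled the graft, whether the healthy muscles came from the same animals, or whether each library of a group is a different animal. The p-values therefore reflect variation among libraries, which may be partly technical. In the gene tests this variation is pooled over all groups in the fit. The MIV day 7 libraries varied more than those of the other groups measured (given below), so pooling may understate their spread.

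The deposited table carries Ensembl rat gene identifiers, and 0 of the 32545 could be paired with a gene symbol in the reference used here. For that reason the genes are described below in classes set by the tissues in which they were found, the 38 gene lists prepared by symbol had no measured member, and the tissue labels could not be checked against named marker genes. Only 4 identifiers are printed, and no sequence is shown.

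Skeletal muscle fibres are long cells with many nuclei, packed with contractile proteins and with the enzymes that fuel contraction, and a small set of transcripts makes up much of their RNA. Muscle taken out and placed in a graft loses its blood supply and its nerve. In such muscle, fibres break down and are cleared by phagocytes, while resident satellite cells can divide, fuse and form new fibres that pass through embryonic forms of the contractile proteins. A graft of this kind also receives Schwann cells, fibroblasts, vessels and immune cells from the nerve stumps and the host.

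Library totals of the 6 libraries lay within the range of the whole series, 12504035 to 17314324 counts. Counts were far more concentrated in healthy muscle. The 42, 41 and 44 most abundant genes of healthy muscle replicates 1, 2 and 3 took 50% of their counts, whereas 610, 541 and 523 genes were needed in MIV day 7 replicates 1, 2 and 3. The 10 most abundant genes took 29.1%, 28.0% and 27.4% of the counts in the muscles and 12.5%, 14.2% and 12.8% in the MIV nerves. At 1 CPM (counts scaled by library total) or more, 11208 to 11368 genes were present in each healthy muscle and 13606 to 13867 in each MIV nerve. The library totals of the groups overlapped, and the other measures did not.

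**Figure D1:**
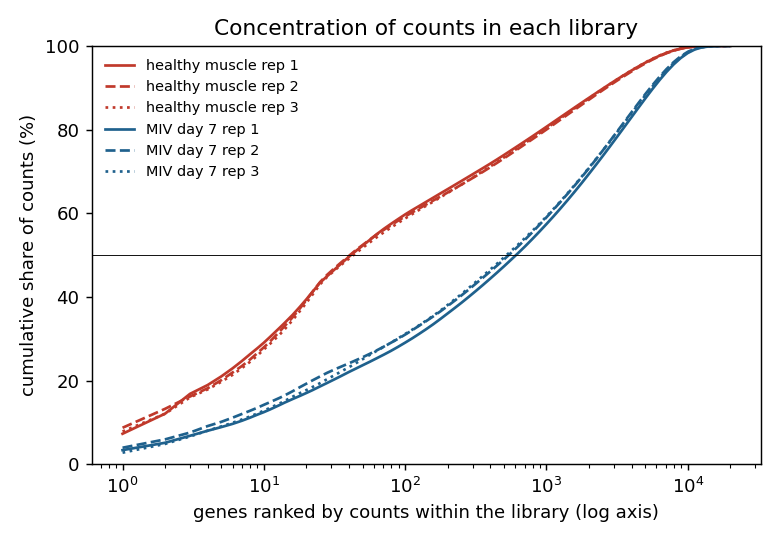
Cumulative share of counts (y axis, %) against genes ranked by counts within each library (x axis, log scale) for the 3 healthy muscle and 3 MIV day 7 libraries, 1 line per library. The muscle lines cross 50% at 41 to 44 genes and the MIV lines at 523 to 610 genes.

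A library dominated by a few genes leaves fewer counts for the others, so levels were scaled with TMM factors (trimmed mean of M-values, which take the bulk of genes as unchanged). The factors were 0.414, 0.421 and 0.410 for the muscles and 1.16, 1.07 and 1.09 for the MIV nerves. CPM values below use these factors, and all fold changes are relative to that scaling. Using library totals alone moved the median log2 difference over the tested genes by 1.41, and computing the factors from the non-muscle genes (those outside the muscle-enriched class defined below) moved it by -0.21.

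The MIV day 7 nerves and healthy muscle differed at most measured genes. By the quasi-likelihood test of edgeR, at a Benjamini-Hochberg adjusted p under 0.05, 5540 genes were higher in MIV day 7 (34.7% of the 15954 tested) and 4999 were lower (31.3%), which is 66.1% in either direction. Of the calls, 52.6% were higher in MIV with TMM factors, 45.2% with factors from the non-muscle genes, and 88.4% with library totals alone. The differences were large in both directions: 4564 genes were called more than 2-fold higher and 1760 more than 8-fold higher, while 3444 were called more than 2-fold lower and 707 more than 8-fold lower. More than 64-fold differences were seen for 382 genes that were higher and 68 that were lower. Every MIV library lay above every muscle library for 5285 genes (33.1%) and below for 5005 (31.4%). For 3310 genes (20.7%) the 95% interval of the difference lay within 2-fold in either direction. That interval used a standard error (SE) derived here from the test's F statistic, since the test itself gives none.

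**Figure D2:**
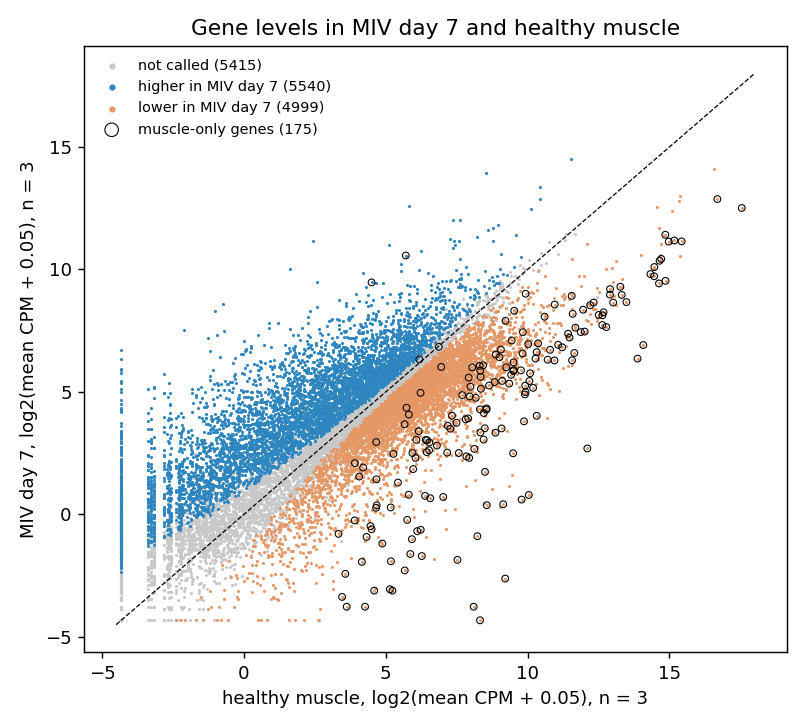
Mean level of each of 15954 genes in healthy muscle (x axis) and MIV day 7 (y axis), as log2(mean CPM + 0.05), n = 3 libraries each, coloured by the edgeR call against healthy muscle. The 5540 higher and 4999 lower genes spread to both sides of the dashed line of equal level, and 175 muscle-only genes (open circles, defined in the text) lie mostly far below it.

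The genes at the extremes were nearly absent from one of the groups. The rule for naming genes took the largest fold changes among called genes with at least 10 CPM in the higher group and no overlap between libraries. ENSRNOG00000030187 stood at 174, 42.9 and 97.3 CPM in MIV day 7 replicates 1, 2 and 3 (3067, 631 and 1382 counts) and had 0 counts in every healthy muscle. Its mean in MIV was at least 656-fold higher, taken against 3 counts summed over the 3 muscles, a floor for counting error alone (edgeR adjusted p = 2.89e-06). This gene was also present in EV day 7 nerves at 178 CPM ± 123 (SD, n = 3) and lay near 0 in healthy nerve and vein, at 0.0492 CPM ± 0.110 (SD, n = 5) and 0.0737 CPM ± 0.0759 (SD, n = 3). It is therefore high in both kinds of repaired nerve and in none of the healthy tissues.

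ENSRNOG00000009919 rested on a single library. It stood at 3.30, 241 and 0.141 CPM in MIV day 7 replicates 1, 2 and 3 (58, 3554 and 2 counts), and at 0 counts in each healthy muscle. The mean was at least 510.1-fold higher against 3 counts over the group (edgeR log2 fold change 13.29, adjusted p = 0.00686). The SE of 3.60, derived from the F statistic, is rough because muscle held 0 counts. Without MIV day 7 replicate 2 the fitted log2 fold change was 7.75 (adjusted p = 0.0165). EV day 7 nerves held 0.476 CPM ± 0.312 (SD, n = 3) and MIV day 3 nerves 1.08 CPM ± 0.440 (SD, n = 3), so replicate 2 at day 7 stood above all of these.

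Among the falls, ENSRNOG00000049124 stood at 302, 201 and 457 CPM in healthy muscle replicates 1, 2 and 3 (1671, 1234 and 3247 counts) and had 0 counts in all 3 MIV day 7 libraries. It was at least 4967-fold lower there, against 3 counts over the group (edgeR adjusted p = 1.43e-06). ENSRNOG00000021789 stood at 299, 261 and 263 CPM in healthy muscle and had a single count over the 3 MIV libraries, in replicate 3. The ratio was 11692-fold with a 95% counting interval of 2290 to 503845 (edgeR adjusted p = 9.15e-11). Both genes were near 0 in healthy nerve, healthy vein and the EV nerves as well, with means of at most 0.152 CPM, so among these groups they stood above that level in healthy muscle alone.

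Genes with 0 counts in all healthy muscles that reached 10 CPM or more in MIV day 7 numbered 20. They were picked on the levels that the test compares, which favours a higher call. All 20 were called higher by edgeR, against 34.7% of all genes tested. Of these, 19 had at least 1 CPM in EV day 7, 11 had at least 10 CPM there, 2 had at least 1 CPM in healthy nerve and 5 in healthy vein. The exception in EV was ENSRNOG00000009919. A single MIV library held more than 90% of the level for 5 of the 20, while 14 had at least 1 CPM in all 3. In the other direction, 1 gene with at least 10 CPM in healthy muscle had 0 counts in all MIV day 7 libraries, the ENSRNOG00000049124 described above.

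Genes were next grouped by the healthy tissue that carried them. Muscle-, nerve- and vein-enriched genes were more than 1 log2 unit above each of the other healthy tissues at an adjusted p under 0.05 in the same fit. Nerve-and-vein genes were more than 1 log2 unit above muscle in both other tissues without being enriched in either, and the remaining 8305 genes had no healthy class. These classes used the same healthy muscle libraries as the comparison, which favours a lower call for muscle-enriched genes and a higher call for the nerve, vein and nerve-and-vein classes, so their counts are a description.

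Muscle-enriched genes were lower in MIV day 7 as a rule: 2559 of 2842 were lower, 30 were higher and 253 did not pass, with a median log2 fold change of -1.93 against 0.17 over all genes tested. They made up 51.2% of all lower calls and 17.8% of genes tested. With library totals alone, 1290 were lower and 387 higher, at a median of -0.51, while 1447 of all genes tested were lower and 11015 higher. The muscle-enriched share of counts was 80.6%, 79.9% and 80.5% in the healthy muscles and 24.8%, 17.9% and 37.4% in MIV day 7 replicates 1, 2 and 3. The groups did not overlap, and the MIV libraries were spread far more widely than the muscles (two-sided exact permutation p = 0.1 for MIV against muscle, the smallest that 3 against 3 libraries can give). In bulk samples, fewer muscle cells and less muscle RNA per cell cannot be told apart.

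**Figure D3:**
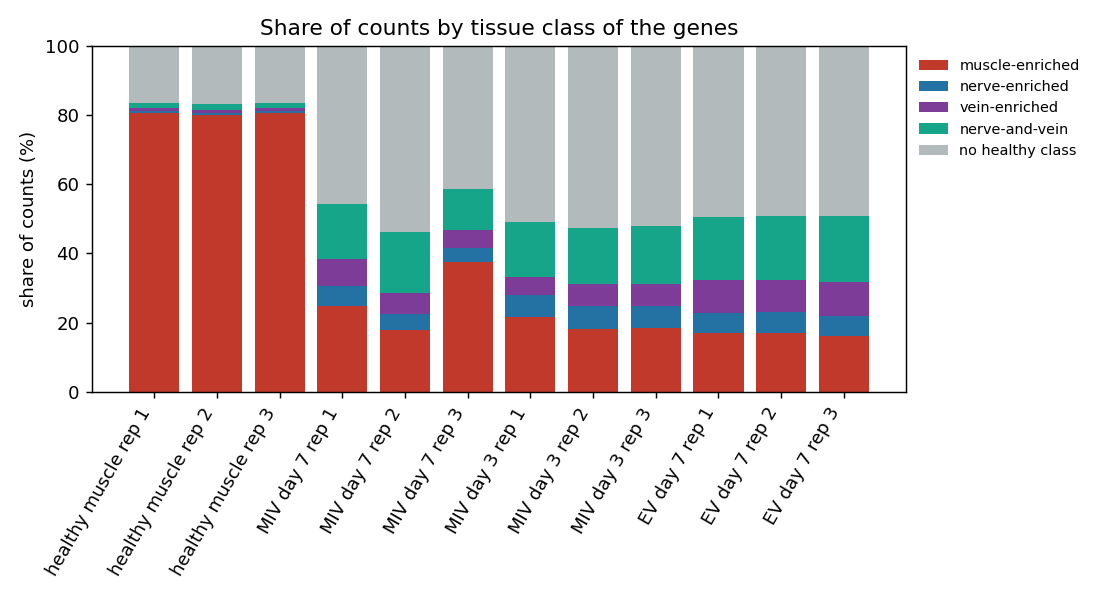
Share of counts (y axis, %) taken by genes of each healthy tissue class in the 3 healthy muscle, 3 MIV day 7, 3 MIV day 3 and 3 EV day 7 libraries (x axis), 1 stacked bar per library. The muscle-enriched part takes about 80% in healthy muscle and from 17.9% (replicate 2) to 37.4% (replicate 3) in MIV day 7.

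Nerve-and-vein genes were mostly higher in MIV day 7, with 1828 of 2195 higher (83.3%, against 34.7% over all genes tested), 25 lower and a median log2 difference of 1.98. Their share of counts was 1.49%, 1.86% and 1.61% in the muscles and 15.7%, 17.5% and 11.9% in the MIV nerves. Vein-enriched genes were higher for 735 of 1127 (65.2%) and lower for 33, with a median of 1.76 and shares of 7.86%, 6.02% and 5.07% in the MIV nerves. Nerve-enriched genes were the most divided of these classes, with 754 of 1485 higher (50.8%, against 34.7% over all genes tested), 82 lower (5.52%, against 31.3%) and 649 not called. The nerve-enriched share of counts was 5.90%, 4.63% and 4.19% in MIV day 7 replicates 1, 2 and 3, and 0.677% ± 0.0457 (SD, n = 3) in muscle. The medians of these 3 classes were above 0 under every scaling tried.

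Genes with no healthy class split evenly and were called less often than all genes tested. They are what remained after the enriched and nerve-and-vein genes were taken out. That choice used the same muscle libraries and favours fewer calls, so the lower rate is a description. Of the 8305, 2193 were higher (26.4%, against 34.7% over all genes tested) and 2300 lower (27.7%, against 31.3%). Their median log2 fold change was 0.02. Of the lower calls, 1005 were more than 2-fold, and of the higher calls 1478. This split moved with the scaling: 1694 were higher and 2986 lower with factors from the non-muscle genes, and 6399 higher and 141 lower with library totals alone.

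**Figure D4:**
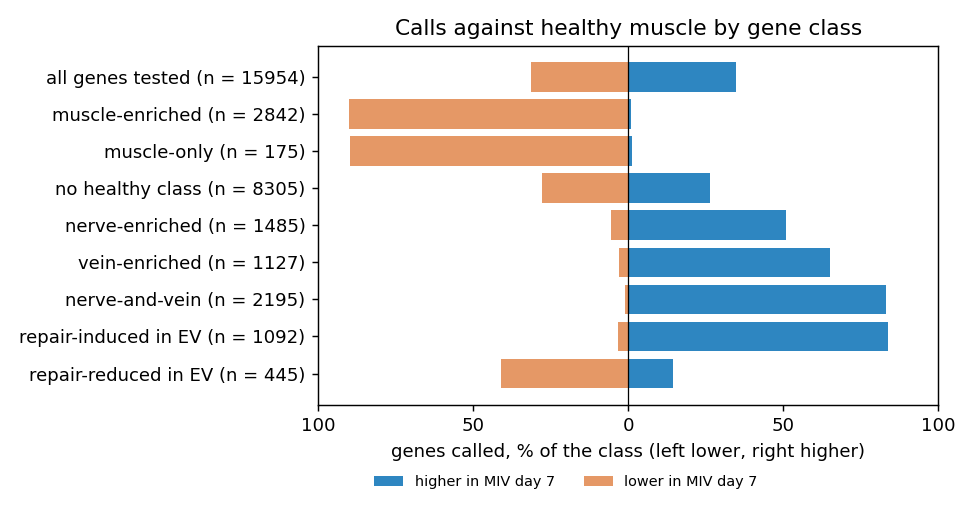
Genes called against healthy muscle as a percentage of each class (x axis, lower to the left and higher to the right), with the number of genes tested in each class (y axis). Of muscle-enriched genes 2559 of 2842 were lower, and of nerve-and-vein genes 83.3% were higher, against 31.3% lower and 34.7% higher over all genes tested.

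A pair of classes was set by contrasts that hold no muscle or MIV library. Those libraries still entered the fit behind the contrasts, through the gene filter, the scaling and the variance estimates. Genes induced by repair were more than 1 log2 unit higher in EV day 7 than in both healthy nerve and healthy vein (adjusted p under 0.05 for both), and genes reduced by repair were lower by the same margin. Of 1092 repair-induced genes, 914 were higher in MIV day 7 than in healthy muscle (83.7%, against 34.7% over all genes tested), 36 were lower and 142 did not pass, and the median log2 difference was 3.46. More than 8-fold rises were called for 636 of these 1092 genes, against 1760 of all 15954 genes tested. Their share of counts was 0.908%, 1.20% and 1.02% in the muscles and 15.6%, 20.1% and 11.6% in MIV day 7 replicates 1, 2 and 3, without overlap (two-sided exact permutation p = 0.1, the smallest possible). For comparison, EV day 7 held 15.8% ± 0.475 (SD, n = 3), a level that the class was chosen on.

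Replicate 2 was the MIV day 7 library with the highest level for 604 of the 1092 repair-induced genes, replicate 1 for 313 and replicate 3 for 175. Over all 15954 genes tested, replicate 2 was the highest for 6151, replicate 1 for 4405 and replicate 3 for 5398. The median repair-induced gene stood at 881%, 1248% and 728% of its healthy muscle mean in replicates 1, 2 and 3. Of 445 repair-reduced genes, 183 were lower in MIV day 7 than in muscle (41.1%, against 31.3% over all genes tested), 64 higher (14.4%, against 34.7%) and 198 not called, with a median log2 fold change of -0.62 that turned to 0.73 with library totals alone. They took 1.09% ± 0.263 of the counts of MIV nerves and 1.19% ± 0.0604 of those of muscle (SD, n = 3 each), a difference within the spread (two-sided exact permutation p = 0.8).

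Genes that were both abundant and far above muscle came from several classes. More than 8-fold higher with at least 10 CPM in MIV day 7 were 809 genes, of which 278 were nerve-and-vein, 112 nerve-enriched, 112 vein-enriched, 13 muscle-enriched and 294 without a class. In the same order, these classes made up 13.8%, 9.31%, 7.06%, 17.8% and 52.1% of genes tested. In all, 397 of the 809 were repair-induced, against 1092 of all 15954 genes tested. The median level of the 809 was 39.8 CPM in MIV day 7, 37.1 in MIV day 3, 28.3 in EV day 7, 8.65 in vein, 7.96 in nerve and 2.05 in muscle. The opposite set, more than 8-fold lower with at least 10 CPM in muscle, held 585 genes. Of these, 541 were muscle-enriched, a class that made up 17.8% of genes tested. The median over all 585 was 249 CPM in muscle, 14.9 in MIV day 7, 5.86 in MIV day 3 and 3.87 in EV day 7. Both sets were chosen on the MIV day 7 and muscle levels, so only the levels of the other groups are free of that choice.

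Many muscle-enriched genes were also detected in EV nerves. The 2842 genes were therefore divided by their EV day 7 level as a percentage of healthy muscle. For the 213 genes at 50% or more in EV, the median level in MIV day 7 replicates 1, 2 and 3 was 63.7%, 77.8% and 67.9% of healthy muscle. For the 1729 genes at 10 to 50% in EV it was 28.6%, 27.8% and 36.6%, and for the 523 genes at 2 to 10% it was 9.84%, 6.30% and 16.8%. For the 168 genes at 0.2 to 2% in EV it was 4.37%, 1.06% and 11.8%. For the 209 genes under 0.2% it was 4.25%, 0.182% and 13.5%. In ratio, the MIV libraries thus lay closer to each other for genes shared with EV nerves than for genes that EV nerves lacked. EV day 3, which the division did not use, had medians of 73.3 to 81.1%, 27.9 to 29.6%, 5.97 to 6.69%, 0.460 to 0.612% and 0 to 0.00587% in the same order.

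Genes that EV nerves lacked were examined further. Muscle-restricted genes were more than 3 log2 units above both nerve and vein with at least 10 CPM in muscle, and 678 genes met this rule. Of them, 629 were lower in MIV day 7 (92.8%, against 31.3% of all genes tested) and 5 higher (0.737%, against 34.7%). The other 44 were not called, and the median log2 fold change was -3.35. The 175 with an EV day 7 mean under 0.2% of muscle are called muscle-only here, and healthy muscle levels entered that choice too. Of the 175, 157 were lower (89.7%, against 31.3% of all genes tested), 2 were higher and 16 did not pass, at a median log2 fold change of -4.24. Without MIV day 7 replicate 2, 155 were lower at a median of -3.67, and without replicate 3, 167 were lower at a median of -5.52. With library totals alone, 122 were lower and 2 higher, at a median of -2.82. Over all genes tested, that scaling gave 1447 lower and 11015 higher.

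Healthy muscle devoted a large part of its RNA to the muscle-only genes, and the MIV nerves held less, in an amount that differed sharply by library. Their share of counts was 33.1%, 37.7% and 33.5% in healthy muscle replicates 1, 2 and 3, and 4.07%, 0.169% and 10.7% in MIV day 7 replicates 1, 2 and 3. The groups did not overlap, and MIV day 7 minus muscle was -29.8 percentage points on average (exact permutation test, two-sided, p = 0.1, the smallest possible). In EV day 7 the share was 0.0202% ± 0.00550, on which the genes were chosen, and in EV day 3, which was not used, 0.0112% ± 0.00416 (SD, n = 3 each). All 3 MIV day 7 libraries therefore lay above the EV day 3 level, replicate 2 by the least.

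The median muscle-only gene stood at 4.17%, 0.178% and 12.4% of its healthy muscle mean in MIV day 7 replicates 1, 2 and 3, and at 0.00888% or less in each EV day 3 library. Over the mean of the 3 MIV libraries the median was 5.31%, which became 2.17% without replicate 3, 7.86% without replicate 2 and 14.1% with library totals in place of TMM factors. In replicate 3, 18 of the 175 genes lay under 1% of healthy muscle, 52 between 1 and 10%, 90 between 10 and 50%, 9 between 50 and 100% and 6 above 100%. In replicate 2, 151 lay under 1%, 21 between 1 and 10%, 1 between 10 and 50% and 2 above 100%. Replicate 1 was in between, with 39 under 1%, 100 between 1 and 10%, 32 between 10 and 50%, 2 between 50 and 100% and 2 above 100%. Replicate 3 held the highest level of the 3 for 172 of the 175 genes. Genes with 0 counts numbered 11, 37 and 1 in replicates 1, 2 and 3.

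**Figure D5:**
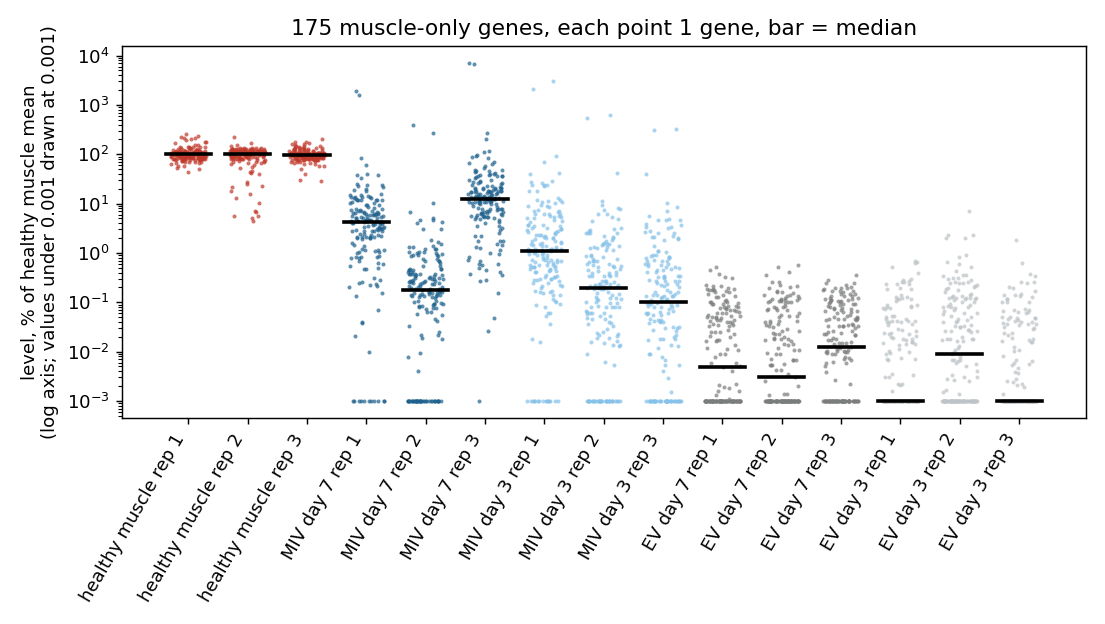
Level of 175 muscle-only genes as a percentage of the healthy muscle mean (y axis, log scale, values under 0.001 drawn at 0.001) in 15 libraries (x axis), each point 1 gene and each bar the library's median. The MIV day 7 medians are 4.17%, 0.178% and 12.4%, and EV medians lie near the bottom of the axis, with EV day 7 low by choice.

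The level relative to muscle differed from gene to gene, most alike between replicates 1 and 3. Each MIV library was set against a different healthy muscle library so that no sample was shared. The log2 ratios to muscle then correlated across the 175 genes with a Spearman rho of 0.854 between replicates 1 and 3, 0.546 between 2 and 3 and 0.504 between 1 and 2. Genes are not independent replicates, low counts limit replicate 2, and the genes share their level in muscle, so these values are descriptions. With the genes divided by muscle level into 59 low, 58 middle and 58 high ones, replicate 3 held a median of 12.8%, 15.8% and 11.0%, and replicate 2 held 0.109%, 0.260% and 0.164%. The middle genes had the highest median in replicate 1 as well.

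The 2 muscle-only genes that rose were chosen for description after their values were seen. One stood at 428, 89.0 and 1614 CPM in MIV day 7 replicates 1, 2 and 3 and at 31.3, 3.59 and 33.0 CPM in the muscles (edgeR log2 fold change 4.97 ± 1.03 SE, adjusted p = 0.000328). The other stood at 839, 139 and 3582 CPM in MIV and 92.4, 34.3 and 30.0 CPM in the muscles (log2 fold change 4.87 ± 0.98 SE, edgeR adjusted p = 0.000447). For both, every MIV library lay above every muscle library, replicate 3 was the highest and replicate 2 the lowest, the order of the muscle-only share of counts. Their EV day 7 means were 0.0430 and 0.0176 CPM, and their MIV day 3 means 297 and 526 CPM.

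The other 3 muscle-restricted genes that rose differed in their EV levels. One stood at 6398, 2608 and 3406 CPM in MIV day 7 replicates 1, 2 and 3 and at 88.6, 367 and 135 CPM in the muscles (log2 fold change 4.39 ± 0.80 SE, edgeR adjusted p = 8.41e-05). It stood at 5074 CPM on average in EV day 7, where it was also high without MIV. The remaining ones had log2 fold changes of 3.72 ± 0.73 SE (adjusted p by edgeR 0.000185) and 1.72 ± 0.62 SE (adjusted p by edgeR 0.0201, its libraries overlapped with muscle), again with replicate 3 highest and replicate 2 lowest. Their EV day 7 means were 1.09 and 23.1 CPM, in that order. Among all 30 muscle-enriched genes that were higher in MIV day 7, 10 had under 1 CPM in EV day 7 and 15 had an EV day 7 mean above that of healthy muscle. The fold changes of the 30 ran from 0.76 to 7.00 on the log2 scale, with a median of 2.31.

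The MIV day 7 libraries were more unlike each other than those of healthy muscle, EV day 7 or MIV day 3, the groups in which this was measured. Among genes with a group mean of at least 10 CPM, the highest and lowest of the 3 MIV day 7 libraries differed more than 8-fold at 537 of 9564 genes (5.61%), against 60 of 8698 (0.690%) in healthy muscle, 47 of 9321 (0.504%) in EV day 7 and 81 of 9242 (0.876%) in MIV day 3. The share was 99.1% of 111 muscle-only genes, 16.1% of 652 repair-induced genes and 2.08% of 1346 nerve-and-vein genes in MIV day 7. A wide spread of muscle-only genes was also seen in MIV day 3, at 62.3% of 61 genes. There the share was 0.139% of 719 repair-induced genes. In healthy muscle it was 5.71% of 175 muscle-only genes. No test was made of these differences in spread. On the first principal component of the MIV day 7, EV day 7 and muscle libraries, which held 74.3% of the variance, the muscles lay at 173 to 186 and EV day 7 at -120.5 to -117. MIV day 7 replicates 1, 2 and 3 lay at -58.9, -113 and -11.4, so on this component replicate 2 was next to EV and replicate 3 was the nearest to muscle. On the second component (8.10% of the variance) MIV replicates 1, 2 and 3 lay together, at 45.8, 49.7 and 76.4, and EV day 7 apart from them at -51.8 to -38.4. The counts of genes called against muscle changed little without either: 5121 higher and 4846 lower without replicate 2, 5629 and 4961 without replicate 3, and 4854 and 4461 with replicate 1 alone, which is then assumed to vary like the other groups.

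MIV nerves were also set against EV nerves of the same day, a contrast that holds no healthy library. With edgeR over the 12 repaired nerves, 0 of 15036 genes were called in either direction (0%), while 1476 were higher in MIV at an unadjusted p under 0.05 (9.82%). Of 134 muscle-only genes measured, 132 had such a p and were higher in MIV, 0 were lower, and the median log2 fold change was 8.17. The genes were chosen on a low EV day 7 level, which favours this direction. DESeq2 called 639 genes higher in MIV (4.25%), 124 of them muscle-only, and 229 lower. Without MIV day 7 replicate 2, edgeR called 649 higher (4.21%), 128 of them muscle-only, and 39 lower. Without MIV day 7 replicate 1 it called 7 higher and 9 lower, and without replicate 3 it called 1 higher. With the replicate number as a block in these 6 libraries, edgeR called 4 genes higher, all 4 of them muscle-only, and 0 lower.

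Day 7 was also set against day 3 of the same graft, which tests whether the difference from healthy muscle differed between the days. The calls depended on the fit. With edgeR over the 12 repaired nerves, 1111 genes were higher at day 7 (7.39% of 15036) and 1216 lower (8.09%). With only the 6 libraries of these groups it called 357 higher and 447 lower, and 0 of the muscle-only genes. Of 134 muscle-only genes measured, 25 were higher at day 7 and 0 lower, and the median log2 difference was 3.05 against 0.06 over all genes. The 25 became 91 without MIV day 7 replicate 2 (12% of all genes were then higher), 2 without replicate 3 (5.59%), 8 without replicate 1, 53 when day 3 replicate 1 was left out, and 1 when day 3 replicate 2 or day 3 replicate 3 was left out. The calls over all genes also moved with the library left out (range given under the dependence on processing). These muscle-only counts are therefore not a result about those genes alone. The muscle-only share of counts was 4.98% ± 5.32 at day 7 and 0.525% ± 0.578 at day 3 (SD, n = 3 each), and the median muscle-only gene stood at 1.11%, 0.194% and 0.101% of healthy muscle in MIV day 3 replicates 1, 2 and 3. The days overlapped, since day 7 replicate 2 (0.178%) lay below 2 of the day 3 libraries.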

How the data were processed

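Poly-A selected RNA (350 ng of total RNA per library) was sequenced from non-directional libraries, per the labels' protocols, so overlapping genes on opposite strands cannot be told apart. CASAVA and HISAT2 are named in the submitters' processing notes. Which tool counted the reads, and on which build and gene models, is not given in the sources used here. Counts of genes that have near-identical copies are uncertain for that reason. The authors deposited raw read counts per gene and library, without normalization. All columns matched a title (0 left over).

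The tests were run with edgeR 4.0.16 under R 4.3.3, after filterByExpr (minimum count 10, minimum total 15) and TMM scaling. A robust glmQLFit with glmQLFTest had 1 coefficient for each group over all 23 libraries (biological coefficient of variation 31.4%) or the 12 repaired ones (37.1%), and Benjamini-Hochberg adjustment. DESeq2 1.42.0 and limma 3.58.1 (voom) served as alternatives. The reference gene table (GRCr8, 47357 genes) holds an Ensembl identifier for 0 genes. Gene classes, lists and members were chosen with earlier results of these data known. The planned share of counts of a sarcomere list could not be measured and was replaced by that of muscle-only genes. Named genes were the largest called changes with at least 10 CPM in the higher group and no overlap, limited to 2 in each direction because symbols were lacking. Correlations used a pseudocount of 0.05 CPM, principal components log2 CPM with a prior count of 2. No replicates were near-duplicates: chi-square per degree of freedom was 38.7 or more for every pair within the groups. Deviations of same-numbered MIV day 7 and EV day 7 libraries correlated at 0.209, 0.189 and 0.167, and differently numbered ones correlated negatively. These values do not establish a pairing: the labels give no shared source. MIV day 7 replicate 3 and MIV day 3 replicate 1, which differ in number, correlated at 0.272. The blocked value therefore stands beside the MIV against EV result. On simulated counts (15726 genes, 200 changed), 44.8% of 2-fold, 71.6% of 4-fold and 90.9% of 8-fold changes were recovered, with 8 false calls. The simulation gave the muscle libraries the scaled depth of the MIV libraries, which is higher than their own, and changed only well-counted genes. It also changed far fewer genes than were called in the data, so these rates need not hold for the real comparison.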

Additional observations from a re-analysis of the deposited data

Results flagged for a closer look

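Day 7 and day 3 were compared by a test of the difference between their differences from healthy muscle, since the same muscle libraries enter both and leave the contrast of the days: edgeR's quasi-likelihood test called 1111 genes higher and 1216 lower at day 7. These counts are not stable: they fell to 357 and 447 with only the 6 libraries of both days, an alternative fit given below called no gene, and single libraries move them.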

How the results depend on the processing

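Against healthy muscle, the counts of genes called stayed within 1.5 times of the reported 5540 higher and 4999 lower under DESeq2, DESeq2 size factors, voom, factors from the non-muscle genes, no filter, the 6 libraries alone and each library left out. Library totals alone gave 11015 higher and 1447 lower, and a muscle-only median of 14.1% of healthy muscle. Replicate numbers were not taken to pair these libraries. Deviations of same-numbered MIV day 7 and day 3 libraries correlated at -0.0668, 0.132 and -0.150. Those of same-numbered MIV and muscle libraries correlated at 0.0671, 0.0520 and 0.0284, although there each library correlated best with its own number. With a replicate block in the 6 libraries, 3938 genes were higher and 3402 lower, against 4398 and 3704 without it.

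Medians near 0 changed sign. That of all genes was -0.0386 with factors from the non-muscle genes. That of genes without a class was -0.206 with those factors, -0.0444 with voom, -0.0447 without MIV day 7 replicates 2 and 3 (chosen after seeing the data), and from -0.0272 (without MIV day 7 replicate 2) to 0.0867 (without healthy muscle replicate 3) with 1 library left out. That of repair-reduced genes was 0.73 with library totals. For MIV against EV at day 7, a replicate block called 4 higher and 0 lower, DESeq2 639 and 229, and leaving out 1 library gave 0 to 649 higher and 0 to 39 lower. For day 7 against day 3 of MIV, the 6 libraries alone (chosen after seeing the data) gave 357 higher and 447 lower, a replicate block 0 and 0, and DESeq2 2056 higher. Leaving out 1 library gave 262 to 1847 higher and 542 to 1722 lower. The cause was not tested. Low counts limit the levels of muscle-only genes in MIV day 7 replicate 2, where 37 of 175 had 0 counts.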

Other observations

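The healthy muscles also differed among themselves at some muscle-only genes. Replicate 2 held 6 of the 175 genes at 1 to 10% of the 3-muscle mean and 12 at 10 to 50%, whereas replicate 1 held 1 and replicate 3 held 4 at 10 to 50% and neither held any below 10%. The highest and lowest muscle differed more than 8-fold at 10 of the 175 genes. Without healthy muscle replicate 2, the median level of muscle-only genes in MIV day 7 was 5.73% of healthy muscle, against 5.31% with it.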
